A study of Arabidopsis thaliana with 4 samples.

Results

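Introns of 500 bases or more were taken from the authors' table of intron scores, in which every row is an intron with its first and last base and a score in 4 columns. Of 79373 introns in the table, 3044 (3.84%) reached this length, and they lay in 2714 of its 15648 genes. Their median length was 656 bases against 99 for all introns of the table, and the longest had 10234. They held 18.8% of all intron bases. Most were of moderate size, with 1977 of 500 to less than 750 bases, 468 of 1000 bases or more and 50 of 2000 or more. Length alone chose them, so their scores played no part in the choice. At the limit, 18 introns had exactly 500 bases and 9 had 1 base less. In the first Col-0 column 44.4% of either were above 0, and in the first mutant column 38.9% and 44.4%.

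The study compared polyA-enriched mRNA of whole, untreated 7-day-old Arabidopsis thaliana seedlings of 2 genotypes. Wild type was the accession Col-0 (replicates 1 and 2). The other group (replicates 1 and 3) carried MAC3B Q77A/D81A-GFP, a MAC3B with both named substitutions fused to green fluorescent protein, and is called the mutant here. The labels give neither the genotype into which this construct was brought, nor its promoter, nor a line with unmutated MAC3B-GFP, so effects of the substitutions, the fusion, the raised level and any change at the endogenous gene cannot be told apart. They do not say that samples of a genotype came from separate cultures, so the p-values below measure the spread between these samples, which may be technical.

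Splicing removes introns from the primary transcript at a donor site that nearly always starts with GT and an acceptor site that ends with AG. MAC3B and its homologue MAC3A are U-box ubiquitin ligases, related to yeast Prp19, in a complex that joins the spliceosome. Introns of Arabidopsis are mostly short. Its long introns are often the first of a gene, can carry regulatory elements, as in MADS-box and KNOX genes, and can hold transposons, whose heterochromatin affects how the transcript is processed. Reads from an intron in polyA-enriched RNA can come from transcripts that kept it, from unfinished transcripts or from another transcript made inside it.

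The splice sites of some introns that the results turn on are printed here because they show where each measured region starts and ends. They were read from the RefSeq copy of the genome (build TAIR10.1), 5′ to 3′, and capitals mark the first and the last 2 bases of the intron. A donor window holds 3 exon bases and 17 intron bases, and an acceptor window 25 intron bases and 3 exon bases. The 1st and 2nd introns of AT1G58602, named by RefSeq as a disease resistance protein with leucine-rich repeats, lie at chr1:21746500-21753883 and chr1:21754089-21758508 on the plus strand:
AT1G58602 intron 1 donor: aagGTtagtcatttttatta
AT1G58602 intron 1 acceptor: tgtttgtatattttgttgtccacAGaaa
AT1G58602 intron 2 donor: gagGTtagtcaattttctta
AT1G58602 intron 2 acceptor: gtccgtctgtactgtacgtcattAGatg
The 2nd introns of DMR6 (chr5:8379678-8381928, plus strand) and APT3 (chr4:11882957-11884721, minus strand) and the 1st intron of ABCG22 (chr5:1992922-1994202, minus strand) lie between coding exons:
DMR6 donor: caaGTaagcacttaaactta
DMR6 acceptor: agtctttgtcatgttgttgttgcAGgga
APT3 donor: cagGTaaatattatctctca
APT3 acceptor: aacaatgcgttggctatcatttcAGgaa
ABCG22 donor: tacGTaagtcgtgcgaactt
ABCG22 acceptor: caacagtgtaacgtaactgtttcAGccg
The strongly covered introns of DRH1 (chr3:214790-215400, minus strand), RS31 (chr3:22901256-22902053, minus strand) and AT1G06630 (chr1:2030208-2031090, plus strand) also lie between coding exons, and the last starts with GC:
DRH1 donor: gagGTatgattggttaatag
DRH1 acceptor: acagtgtggttttctgttttcttAGgta
RS31 donor: ctgGTaaagtgtcttctaag
RS31 acceptor: atccttgtgctttcttttgttgcAGgat
AT1G06630 donor: ccgGCaagtttttcgatctt
AT1G06630 acceptor: attacttggttttttactgatgtAGaac

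Among the 3007 long introns of the nuclear chromosomes, 93.7% started with GT and ended with AG, 16 started with GC and ended with AG, and none had AT and AC, against 96.7% with GT and AG in 76328 shorter introns. The donor letters GTAAG, read on the gene's strand from the first base of the intron, stood in 15.1% of long and 17.1% of shorter introns. Position set them apart more. Of the long nuclear introns 50.5% were the first of their gene, against 18.5% of the shorter ones, and 9.88% lay in the 5′ UTR against 2.89%. Counted per intron, the gene of a long intron held a median of 4 introns, against 8 for a shorter one. A first place was thus likelier among long introns by number alone. These medians weight each gene by its introns and do not compare genes. The median GC content of the long introns was 31.7% against 32.5%. A further 23 long introns were chloroplast and 14 mitochondrial.

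The libraries held 23436163 and 24245300 counts in Col-0 and 23936296 and 30105517 in the mutant. MAC3B itself stood at 156 and 162 counts scaled to CPM, the share of a library in units of 1e6, in Col-0 and at 1147 and 946 in the mutant (log2 fold change 2.72 ± 0.09, SE, edgeR). MAC3A, at 57.6 to 59.6 CPM, differed by 0.01 on the same scale (adjusted p = 0.965, edgeR). The longest introns of these genes in the table have 347 and 270 bases, so neither is a member. Of the markers for whole seedlings, 4 green shoot genes together stood at 29477 and 28018 CPM in Col-0 and at 24558 and 26394 in the mutant, both below Col-0. Of these 4, CAB3, a light-harvesting protein, passed the test (log2 fold change −0.32, adjusted p = 0.0261, edgeR), and the part of such a shift in the results below was not tested. The 5 root genes stood at 5435 to 5854 CPM, while 3 flower and pollen genes stood at 0.132 to 0.452 and 3 seed genes at 0.822 to 7.01. In such bulk samples, fewer cells of a type and less RNA per cell cannot be told apart.

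Score times intron length was, within each column, always a whole number times the same factor (100% of introns above 0, within 0.02). The factors were 12.9 and 12.496 in the first and the second Col-0 column and 12.7 and 10.1 in the first and the second mutant column. In long introns the most frequent multiple was 300, which 75, 56, 56 and 56 introns showed, and the next was 600, so a multiple counts bases covered by reads, and 300 of them are 1 read pair of 150 bases a read. Scores are therefore read depth per base, scaled per column. For an intron of 500 bases, 1 read pair made a score of 7.75, 7.50, 7.60 and 6.07, and 3 pairs, the limit that a score of 0 allows, made 23.2, 22.5, 22.8 and 18.2. These limits cover counting error only. Covered bases divided by 300 are called read-pair equivalents below. The columns are named by genotype and number and were not tied to single samples. The libraries of Col-0 replicates 1 and 2 and mutant replicates 1 and 3 held 23436163, 24245300, 23936296 and 30105517 counts. Taken in this order, the factors ranked in reverse to the totals. The smallest factor was that of the second mutant column, and the most counts were in mutant replicate 3.

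Long introns were covered more often than shorter ones. Scores above 0 were found for 54.5% and 52.9% of long introns in the first and the second Col-0 column and for 52.3% and 59.8% in the mutant columns. Over all introns of the table the shares were 29.9%, 28.7%, 27.7% and 35.5%. The second mutant column was the highest in both sets, and it was also the column with the smallest factor, in which 1 read pair weighs least. The mutant share minus the Col-0 share was 2.32 percentage points for long introns, with an SD between columns of a genotype of 3.84 points, so the genotypes differed by less than their columns, and it was −1.43 points without the second mutant column. In all 4 columns 38.1% of long introns were above 0, and in none 28.2%, against 12.6% and 48.6% of shorter introns.

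A longer intron offers more bases on which a read can fall, so the share above 0 is not a rate per base. The pooled score, which is the sum of score times length divided by the sum of lengths, is. For long introns it was 41.8 and 42.1 in Col-0 and 43.6 and 40.004 in the mutant, and for shorter ones 26.5, 26.4, 27.2 and 27.1. The mutant over Col-0 ratio was 0.997 (SD 0.0431) for long and 1.03 for shorter introns. By length class, introns under 100 bases had pooled scores of 19.2 to 21.1, those of 300 to less than 500 bases 40.4 to 41.1, those of 500 to less than 750 bases 40.02 to 43.9 and those of 1000 to less than 2000 bases 30.2 to 34.2. The 50 introns of 2000 bases or more had 75.4 and 73.1 in Col-0 and 69.8 and 63.7 in the mutant, and few of them carry these values, as the examples below show.

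**Figure D1:**
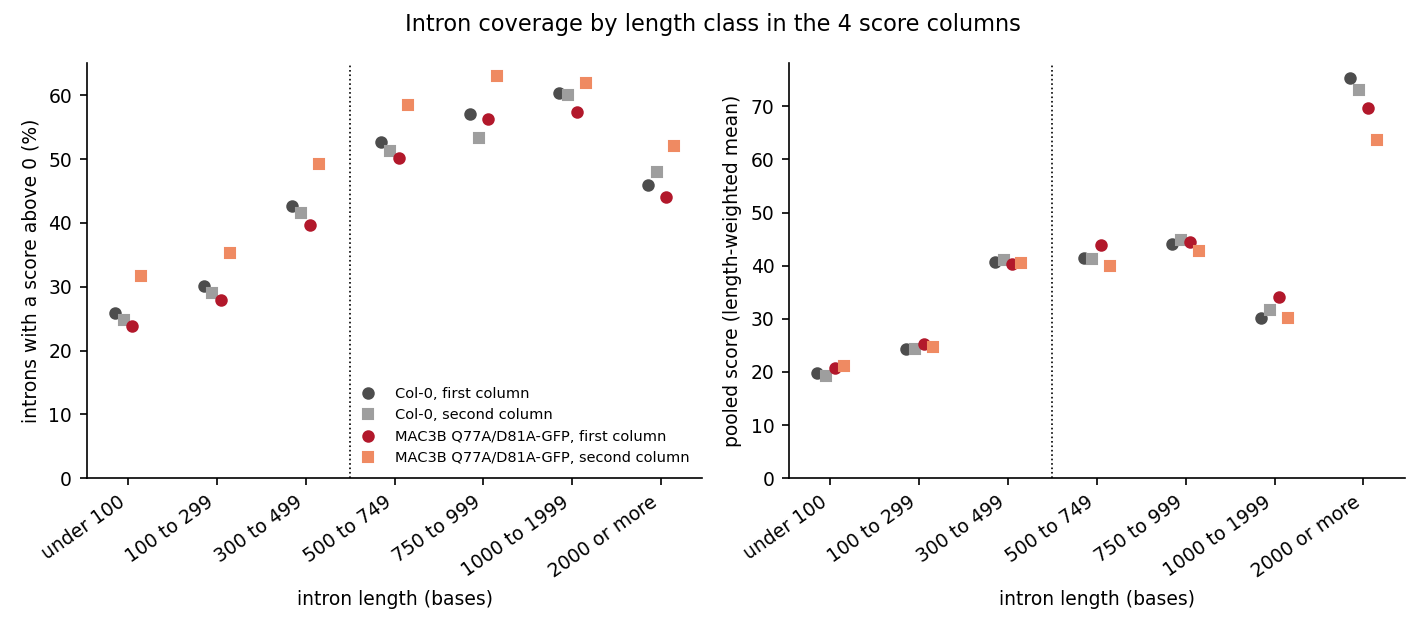
Share of introns with a score above 0 in percent (left) and pooled score (right) by intron length in bases, with 1 point per score column and the limit of 500 bases as a dotted line. The share rose from 23.9 to 31.7% under 100 bases to 57.4 to 62.0% at 1000 to less than 2000 bases and was 44.0 to 52.0% in the 50 introns of 2000 bases or more, and the second mutant column was the highest of the 4 in each class.

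Coverage followed the level of the gene. Where the gene's mean over the 4 libraries was under 1 CPM but above 0, 22.3% to 32.3% of 381 long introns were above 0, against 6.8% to 9.8% of 7390 shorter ones. Where it was 20 to 100 CPM, the shares were 66.9% to 74.3% of 971 long introns and 33.7% to 43.3% of 28962 shorter ones. Over 100 CPM they were 69.8% to 79.9% of 278 and 43.6% to 52.8% of 9374. Of 336 long introns in genes without a count, 1.2% to 1.8% were covered. Pooled scores kept the same order at 20 to 100 CPM, with 50.8 to 54.1 for long and 25.3 to 26.8 for shorter introns.

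**Figure D2:**
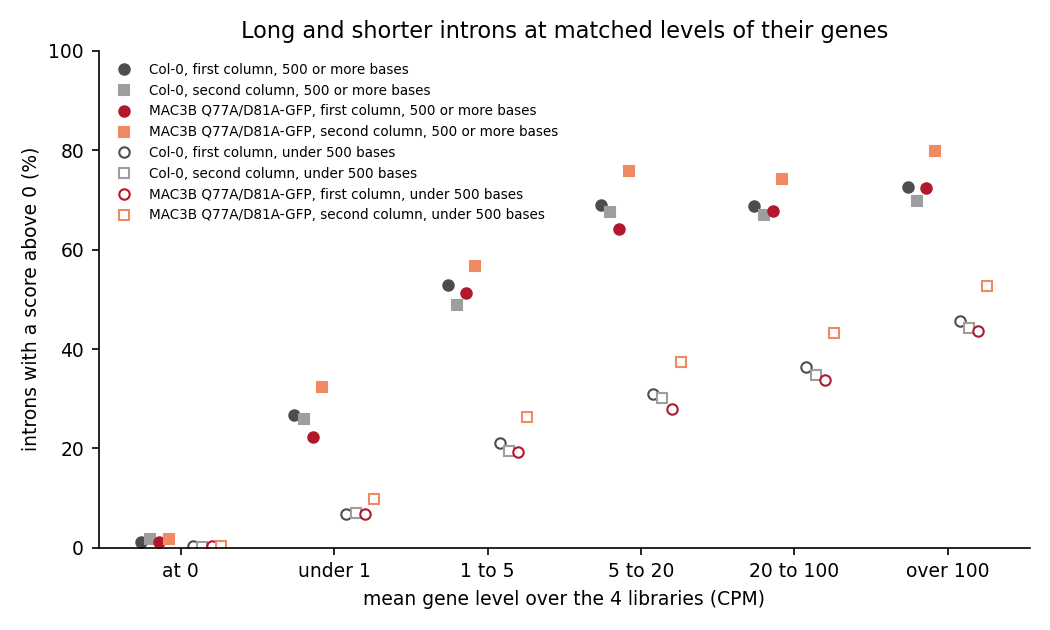
Share of introns with a score above 0 in percent by the mean level of their gene in CPM, for introns of 500 bases or more (filled) and under 500 (open), with 1 point per score column. Long introns lie above shorter ones in every class above 0 CPM, and the second mutant column is the highest in each of these classes.

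Within a gene the picture was more even. In 2160 genes that held long and shorter introns, the pooled score of the long ones was the higher in 50.4% and 50.7% of covered genes in the Col-0 columns and in 50.3% and 48.4% in the mutant columns. The pooled values over these genes were nonetheless 36.1 to 39.2 for long and 19.2 to 19.97 for shorter introns. The covered bases were gathered in few long introns, with 19.97% of them in the top 10 and 52.1% in the top 100, against 12.8% and 24.7% for shorter introns. Across the 1157 long introns above 0 in all columns whose gene had a count, log2 of the mean score and log2 of gene CPM per kilobase of exon had a Pearson correlation of 0.28 (Spearman 0.33), and that with length was −0.11 (Spearman −0.12). Introns share libraries and genes, so these correlations are descriptions.

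The read density of an intron was set beside that of its gene's exons, as read-pair equivalents per base over counts per base, summed over both columns and both libraries of a genotype. In 261 long introns with at least 20 mean read-pair equivalents and a tested gene, the median density was 7.59% of the exon density in Col-0 and 7.52% in the mutant. Density passed 10% in both genotypes for 108 of them, 50% for 17 and 100% for 7. Over all 2464 long introns whose gene was tested, the medians were 0.93% and 1.12%, and 984 stayed under 1% in both genotypes.

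Highest of all stood the 4th of 9 introns of DRH1, a DEAD box RNA helicase, with 611 bases and scores of 4041 and 3948 in Col-0 and 3524 and 2828 in the mutant. The mutant columns were the lower, and the difference did not pass the test (log2 fold change of read-pair equivalents −0.33, adjusted p = 0.772, edgeR). The other 8 introns of the gene had a median mean score of 3.23 and none above 31.9, so the coverage lay in this intron and not along the gene. Its density was 34.0% of the exons in Col-0 and 28.7% in the mutant. The 6th intron of UAP56a, a helicase related to human UAP56 that acts in mRNA export and splicing, showed the same shape. It has 684 bases and scored 2121 and 2139 in Col-0 and 1961 and 2237 in the mutant, with overlapping columns, while the highest mean score among the 10 other introns was 113.

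Further introns with high scores are given for genes of RNA-binding or splicing proteins, and all but that of BTR1L were chosen for this role or from a list and not by their rank. The 2nd intron of RS31, an arginine- and serine-rich splicing factor, has 798 bases and scored 1188 and 1220.2 in Col-0 and 1065 and 993 in the mutant, against at most 4.48 in the 4 other introns of the gene. Its density was 32.2% of the exons in Col-0 and 27.5% in the mutant, and the lower mutant columns did not pass the test (log2 fold change −0.23 ± 0.15, adjusted p = 0.820, edgeR). BTR1L, which binds viral RNA, had 1687, 1888, 1752 and 1484 in its 5th intron of 500 bases. For AT5G09880, annotated as a CC1-like splicing factor, the 4th intron of 599 bases scored 1552 and 1529 in Col-0 and 1081 and 1141 in the mutant, and the gene's log2 fold change of −0.20 did not pass the test (adjusted p = 0.373, edgeR). The large subunit gene of U2AF, AT1G60900, had 1107, 1168, 925 and 1299 in its 4th intron of 630 bases, with overlapping columns.

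Others with high scores have no splicing role in the annotation. The intron of GRP3S, a glycine-rich protein, has 619 bases and scored 2241 and 2713 in Col-0 and 1675 and 1824 in the mutant. Its gene fell by 0.36 on the log2 scale (adjusted p = 0.032, edgeR), and the log2 fold change of the intron, −0.50 ± 0.16 (SE), did not pass the test (adjusted p = 0.772). AT1G06630, an F-box protein, had 1648, 1620.3, 1454 and 1517 in its 2nd intron of 883 bases, at 161% of the exon density in Col-0 and 150% in the mutant. AT1G21500, an uncharacterized protein, had 1938, 1409, 1741 and 1715 in its only intron of 527 bases. The chloroplast gene ATCG00450 had 2278, 1849, 2483 and 1624 in its intron of 598 bases, at a gene level under 1 CPM. Chloroplast introns in pairs of copies, such as those of ATCG00940 (625, 761, 502 and 730.4) and ATCG01190 (628, 756, 502 and 740), had nearly the same scores, and such values may rest on the same reads.

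AT2G11225 had the most covered bases, with 1823 and 1842 read-pair equivalents in Col-0 and 1901 and 2250 in the mutant in an intron of 2936 bases. RefSeq lists a pseudogene record on the other strand over all 2936 of them, and the 7 other introns of the gene were covered as well, with a median mean score of 3765. In total 23 long nuclear introns held such records, 16 of pseudogenes, 6 of transcribed pseudogenes and 1 of another RNA.

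Several of the longest introns held such a record. That of AT3G60961, 10234 bases, scored 135 and 158 in Col-0 and 121 and 124 in the mutant while the gene had 0 CPM in 3 libraries and 0.0987 in mutant replicate 3. A pseudogene record on the other strand covers 9903 of its bases. AT1G35895 (6246 bases) and AT4G22410 (5692 bases) were at 0 in all columns, at gene levels of at most 0.0834 CPM. The uncovered intron of AT4G22410 holds a pseudogene record too, on the gene's own strand over 4860 bases, and it ends with TT and not with AG. The 3rd intron of AT3G05410, 5411 bases, scored 44.4, 47.5, 43.5 and 35.9, at 3.52% of the exon density in Col-0 and 3.22% in the mutant. Its gene is known for a long intron with heterochromatic marks, and 4856 of the intron's bases, from the first on, lie under a pseudogene record on the other strand. This gap between exons starts with CG and not with GT, so its start is not a usual donor site.

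Between genotypes, no long intron passed a test. All 41390 introns above 0 in at least 1 column were tested with limma on log2(score + 1), and 0 passed an adjusted p of 0.05 (0% of all introns), among them 0 of 2186 long ones. With the first mutant column left out limma called long introns, nearly all with both Col-0 columns at 0 and so no spread. The share over all introns was not counted in that setting. Leaving out any other column led to no call of a long intron. On simulated data of this size limma found none of the changes put in, so its count of 0 says nothing about whether introns differed. At an unadjusted p under 0.05 there were 5 of 2186 long introns, a smaller share than the 739 of 41390 introns (1.79%) of any length. The median difference of long introns, mutant minus Col-0, was 0.11 on this scale, where all introns tested had 0.18. A test of read-pair equivalents with edgeR, added after the unit was seen, called 5 of 1777 introns (0.281%) and 0 of 573 long ones, the smallest adjusted p among the long being 0.0765. At an unadjusted p under 0.05 it had 51 long introns (8.90%), against 6.36% of all tested. Tested in the same way, it found most of the larger changes and few of the smaller, so differences of moderate size can go unseen in covered introns too.

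Columns without overlap were counted as well. Both mutant columns lay above both Col-0 columns for 348 of 2186 long introns (15.9%) and below for 287 (13.1%), where all introns gave 12.2% and 9.69%. Among 276 long introns with at least 20 mean read-pair equivalents, 45 were above (16.3%) and 56 below (20.3%), against 16.9% and 21.7% of 705 introns of any length. These shares lie near the background. In the 40 long introns with at least 100 mean read-pair equivalents, 3 were above (7.5%) and 14 below (35%), a lean to lower scores that 82 introns of any length shared (6.1% and 36.6%). In the 276, columns of Col-0 differed by a median of 0.31 on the log2 scale, and columns of the mutant by 0.45, while pairs of columns across genotypes differed by 0.34 to 0.47. The spread between genotypes was thus about that between the mutant columns.

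**Figure D3:**
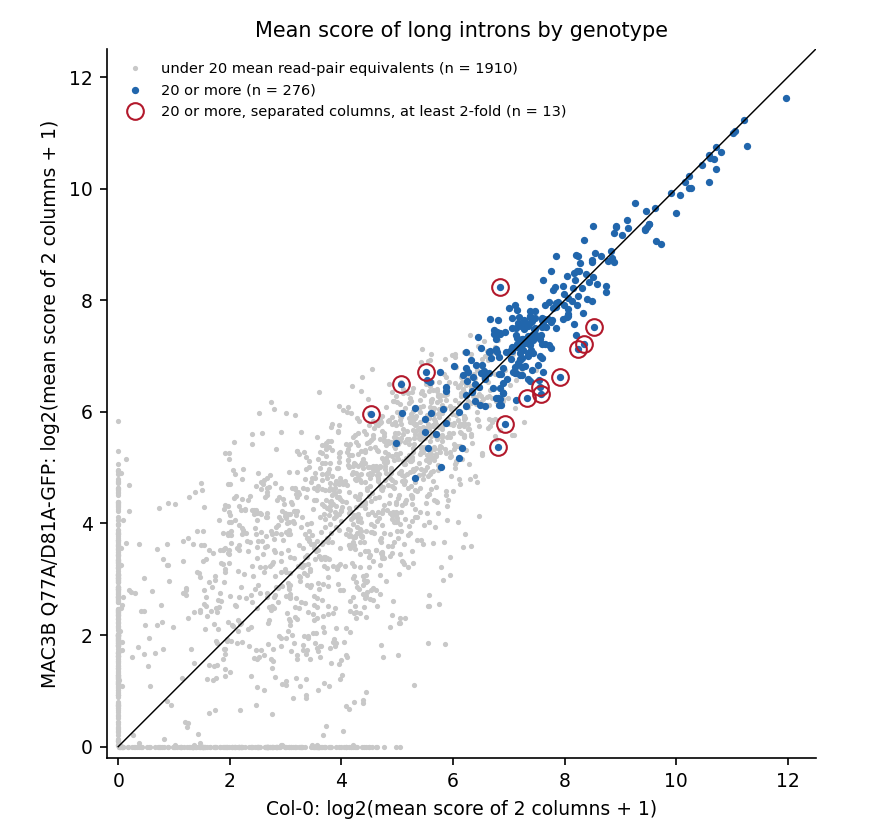
Mean score of each long intron above 0 in at least 1 column, as log2(mean of 2 columns + 1), in Col-0 (x axis) and in the mutant (y axis), with the line of equal scores. The 276 introns with at least 20 mean read-pair equivalents (blue) follow the line, the others (grey) scatter widely down to 0, and red circles mark the 13 described next.

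Of the 276, 13 introns in 12 genes also differed at least 2-fold between the genotype means, 9 of them lower in the mutant (3.26%, against 1.84% of 705 introns of any length) and 4 higher (1.45% against 2.27%). They were chosen by these scores, so their separation is a description. For 3 of the 12 genes the count passed the test in edgeR (ABCG22, TLL1 and ROD1). Taken over the 13 introns, the median size of the gene's log2 fold change was 0.20, with AT1G58602 entered for each of its 2 introns.

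Of these 13, 2 introns of AT1G58602 differed in opposite directions, and the first of them had the smallest p of the 13 in edgeR. The 1st intron, 7384 bases in the 5′ UTR, scored 222 and 159 in Col-0 and 83.7 and 73.5 in the mutant, from 424 and 314 read-pair equivalents against 163 and 179. Both mutant columns lay below the lower Col-0 column, and the log2 fold change of read-pair equivalents was −1.28 ± 0.20 (SE). Its adjusted p was 0.0765 in edgeR and 0.625 in limma. The 2nd intron, 4420 bases, also in the 5′ UTR, scored 30.8 and 13.5 in Col-0 and 86.7 and 36.7 in the mutant (log2 fold change 1.45 ± 0.50, adjusted p = 0.772, edgeR). On the log2(score + 1) scale its difference of 1.42 was 0.81 without the first mutant column and 0.86 without the second Col-0 column. The gene's count did not move with either, at 95.2 and 91.4 CPM in Col-0 and 108 and 84.4 in the mutant (log2 fold change 0.04 ± 0.10, adjusted p = 0.900). Read density in the 1st intron was 12.3% of the exons in Col-0 and 4.81% in the mutant, and in the 2nd 1.42% and 3.63%. A pseudogene record on the gene's own strand covers 4572 bases of the 1st intron. Columns overlapped in the 3rd intron, of 1500 bases (14.1, 25.01, 20.9 and 4.12), and in the 8th, of 611 bases (201, 85.2, 258 and 127). In the 6th, of 90 bases, the mutant columns were the lower (994 and 1052 against 917 and 817; log2 fold change −0.23, adjusted p = 0.929, edgeR). Whether reads from other copies of the pseudogene take part was not tested.

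**Figure D4:**
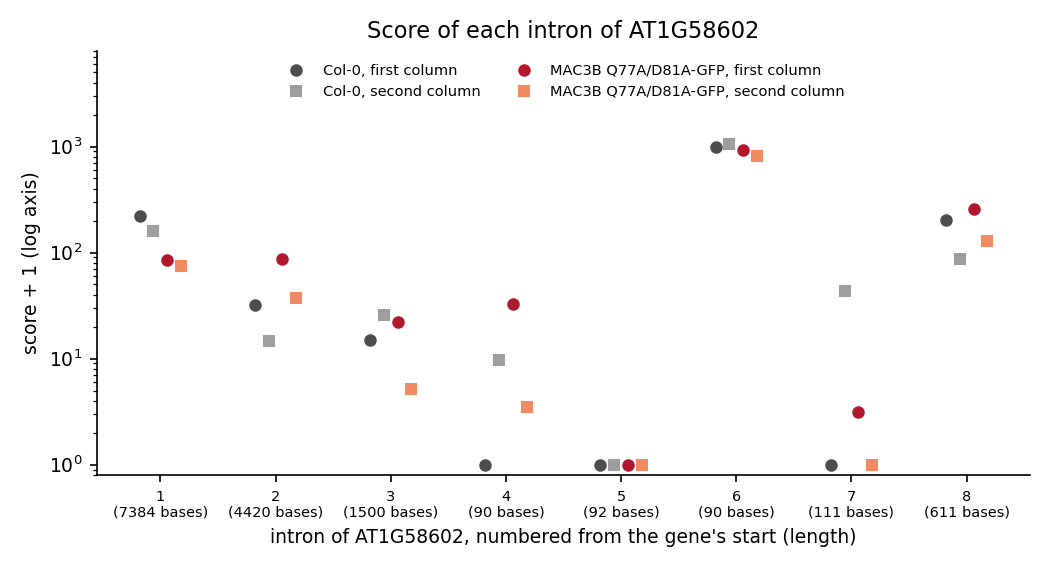
Score + 1 on a log axis for each of the 8 introns of AT1G58602, in order from the start of the gene, with 1 point per score column. The mutant columns lie below both Col-0 columns in the 1st intron (83.7 and 73.5 against 222 and 159) and above both in the 2nd (86.7 and 36.7 against 30.8 and 13.5).

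The other 8 introns that were lower in the mutant had genes whose counts changed less. DMR6, a 2-oxoglutarate oxygenase that restrains defence, had 303 and 302 in Col-0 and 175 and 103 in the mutant in its 2nd intron of 2251 bases (log2 fold change −1.13 ± 0.25, adjusted p = 0.358, edgeR), with a gene count of 44.5 and 44.7 CPM against 48.3 and 42.8. Its 2 other introns had mean scores of at most 160.3. APT3, an adenine phosphoribosyltransferase, had 116 and 106 against 47.7 and 33.3 in its 2nd intron of 1765 bases (−1.48 ± 0.32, adjusted p = 0.358), at gene counts of 21.5 and 21.4 against 19.2 and 18.7 CPM. In both introns the Col-0 columns were close together, while the mutant columns lay further apart and below them.

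AT1G22330, an RNA-binding protein, had 296 and 351 against 156 and 138 in its last intron, of 511 bases. KDR, a small helix-loop-helix protein of light and growth signalling, had 187 and 186 against 94.3 and 78.3 in an intron of 619 bases. In the intron of PRPL35, a plastid ribosomal protein, the mutant columns were far apart (46.0 and 149) below 287 and 195. NFU2, an iron-sulfur scaffold of the chloroplast, had 128 and 193 against 52.8 and 97.0 at an even gene count (51.3, 53.0, 51.2 and 52.9 CPM). AT2G46550, an uncharacterized protein, had 447 and 285 against 246 and 118. The 2nd intron of ROD1, which makes diacylglycerol from phosphatidylcholine, had 135 and 107 against 78.0 and 30.7, and its gene fell too, by 0.57 ± 0.11 on the log2 scale (adjusted p = 0.00489, edgeR). Some of these values rest on 1 column: on the log2(score + 1) scale, PRPL35 went from −1.50 to −0.66 without the first mutant column and to −2.34 without the second. For ROD1 the same steps led from −1.28 to −1.93 and to −0.62. NFU2 went from −1.12 to −0.69 without the first mutant column, and AT2G46550 from −1.06 to −0.54 without the second.

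Of the 3 remaining introns that were higher, those of ABCG22 and TLL1 went with a rise of the gene. ABCG22, an ABC transporter, had 36.3 and 28.5 in Col-0 and 84.4 and 94.3 in the mutant in its 1st intron of 1281 bases, and its gene rose from 41.2 and 49.3 to 68.1 and 73.3 CPM (log2 fold change 0.64 ± 0.10, adjusted p = 6e-04, edgeR). The 3rd intron of TLL1, a lipase-like protein, 1726 bases, had 63.1 and 26.6 against 135 and 72.3, with a gene change of 0.59 (adjusted p = 0.00246). Its difference on the log2(score + 1) scale was 1.25, and it was 0.64 without the second Col-0 column and 0.80 without the first mutant column. EXPA6, a cell-wall loosening expansin, had 149 and 79.2 against 271 and 330 in its 2nd intron of 674 bases while its gene stayed at 90.1, 92.8, 99.5 and 99.97 CPM (0.12 ± 0.08, adjusted p = 0.507).

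**Figure D5:**
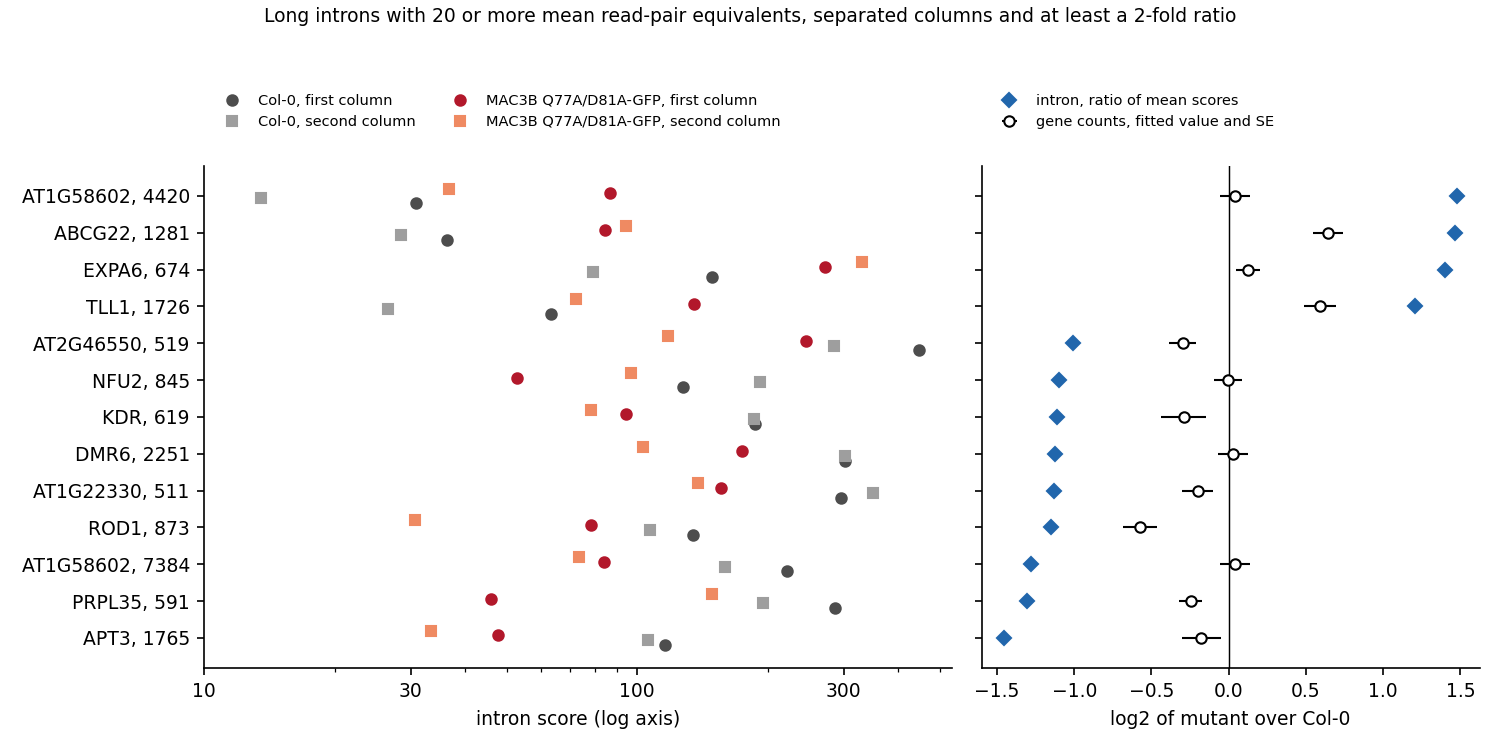
The 13 long introns with at least 20 mean read-pair equivalents, columns without overlap and at least a 2-fold ratio of the genotype means, named by gene and length in bases. Left, the score in each column on a log axis; right, log2 of mutant over Col-0 for the intron (diamonds) and for the gene's counts (circles with SE), where the intron values lie between −1.45 and 1.48 and the gene values between −0.57 and 0.64.

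Differences on the log2(score + 1) scale were larger in introns with few reads. The 6 highest among separated introns belonged to AT5G03370, AT2G39630, AT2G35790, AT1G07920, COBL7 and AMK2, at 4.73 to 5.79. AT5G03370 was listed at 0 in both Col-0 columns and at 69.7 and 42.2 in the mutant, from 13.0 and 9.85 read-pair equivalents, and the other 5 had at most 9.24. AT1G07920 codes for elongation factor 1-alpha, whose copies are nearly identical, so its values are uncertain. The 6 lowest belonged to AT1G67890, AT5G42670, CYP714A2, AT4G13600, AT1G42480 and XGD1, at −4.98 to −4.08, with at most 8.39 read-pair equivalents in a Col-0 column. That of CYP714A2 ends with GT and not with AG. None of the 12 genes' counts passed the test, with log2 fold changes of −1.10 to 0.34. The authors' deposited table of introns that differ by at least 4 lists 2336 of 79373 (2.94%), among them 32 long ones (1.05% of the long and 3.02% of the shorter). Of these 32, 22 were higher and 10 lower in the mutant. Of the 2336 listed introns of any length, 1417 were higher and 919 lower (1.79% and 1.16% of all introns). Among the 32, 24 had both columns of a genotype at 0, and their median depth was 2.47 mean read-pair equivalents with 6.85 as the highest.

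The genes of long introns changed about as often as others. Of 2714, 2196 were tested in edgeR and 54 passed (2.46%, against 3.01% of 20483 genes and 3.27% of 11567 genes of the score table), 29 higher (1.32% against 1.68%) and 25 lower (1.14% against 1.33%). Their median absolute log2 fold change was 0.49, and 9 changed at least 2-fold. The count depended on single libraries: it fell when either Col-0 library was left out and rose when either mutant library was. In those settings the share over all genes was not counted, so this cannot be called a trait of genes with a long intron. These 54 genes hold 62 long introns, of which 60 were above 0 in at least 1 column. Intron and gene were both higher in the mutant for 22 and both lower for 18, while 8 introns were lower in a gene that rose and 12 higher in a gene that fell.

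Examples of both were well covered. SSR16, a plastid ribosomal protein, rose by 0.47 (372 and 333 against 481 and 497 CPM, adjusted p = 0.000717, edgeR), and its 2nd intron had 349 and 240.1 against 439 and 456. EXP3, an expansin, rose by 0.43 (adjusted p = 0.00684), with 292 and 312 against 450.0 and 433 in an intron of 787 bases. For AT4G23680, a polyketide cyclase family protein, the gene rose from 64.4 and 70.6 to 153 and 170 CPM (log2 fold change 1.26 ± 0.09, adjusted p = 4.45e-09), but its only intron of 546 bases had 321 and 539 in Col-0 and 271 and 342 in the mutant (−0.46 ± 0.33, adjusted p = 0.838). RPP4, a resistance gene of the TIR class, fell from 133 and 137 to 89.4 and 85.2 CPM (−0.63 ± 0.08, adjusted p = 5.65e-05, edgeR). Its 1st intron of 2830 bases was lower in the mutant too, but by little. It had 175 and 208 in Col-0 and 222 and 145 in the mutant (−0.07 ± 0.24, adjusted p = 0.975, edgeR). The columns of the genotypes overlapped in the introns of AT4G23680 and RPP4.

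Genes known for long introns were followed by list. Of 6 genes known for heterochromatin or noncoding RNA in an intron, 4 held 7 long introns, whose median difference was 0.47, and 0 passed the test. The other 2, FLC and AT1G11270, had no intron in the score table and so were not scored. Of the 7, 4 belong to AT1G58602, and IBM1, a histone demethylase gene, and AG, the floral homeotic gene, had at most 2 read-pair equivalents in any column. In 18 MADS-box genes, regulators of flowering, 11 long introns had a median difference of 0.08, with 8 above 0. Of the 18 genes, 5 had no intron in the score table. SOC1, a promoter of flowering that RefSeq lists as AGL20, had 58.9 and 108 against 25.4 and 30.5 in an intron of 1002 bases (log2 fold change −1.53 ± 0.49, adjusted p = 0.772, edgeR), and its gene fell from 17.5 and 15.2 to 8.43 and 11.4 CPM (−0.72 ± 0.17, adjusted p = 0.0234). It was the only one of 12 tested MADS-box genes to pass, where 3.01% of all genes passed. SVP, a repressor of flowering, had 8.54, 41.7, 82.3 and 28.1, and MAF3, a relative of FLC, had 33.6, 55.2, 66.6 and 30.9, both with overlapping columns.

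Of 7 KNOX genes, homeobox regulators of the meristem, 4 held 6 long introns (median difference 0.19, 0 passing). KNAT6 had 31.6, 29.2, 54.7 and 30.1 in an intron of 3676 bases. The gene KNAT1 rose from 9.56 and 12.8 to 19.6 and 20.6 CPM (0.85 ± 0.16, adjusted p = 0.0036, edgeR), and its introns of 683 and 547 bases had overlapping columns (35.3, 102, 93.3 and 14.2, and 55.1, 19.8, 49.9 and 21.3). Of 17 splicing factor and RNA-binding genes RS31 alone held a long intron in the table, and 6 had no intron in it. In that list GRP7, a glycine-rich RNA-binding protein (−0.47 ± 0.10, adjusted p = 0.0147, edgeR), and FCA, an RNA-binding promoter of flowering (−0.41 ± 0.10, adjusted p = 0.0263, edgeR), fell. The others of the 17 did not pass the test. Over all genes 1.68% passed as higher and 1.33% as lower. Whether lists this short differ from these shares was not tested. In the housekeeping list ACT7 (47.5, 20.8, 14.1 and 25.7) and PRF1 (46.0, 89.8, 30.03 and 23.9) held a long intron, and none of its 10 genes passed. Of these 10, 2 had no intron in the score table. IBM2 and CMT3, which act on heterochromatic introns or DNA methylation, each held a long intron that was at 0 in all columns. Of the 6 genes of their list, 2 had no intron in the score table.

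The authors' deposited table of retained introns from rMATS lists 242 of 4690 events with an intron of 500 bases or more. None of them is an intron of the score table, since each row of the score table is a gap between the merged exons of all transcripts of a gene (79373 of 79373), and a retained form that is annotated closes that gap. The long introns described here are therefore among those that no annotated transcript of the gene keeps. Not all such gaps were scored: of 4303 gaps of 500 bases or more, 3044 are in the score table. None of its genes overlaps the span of another gene, so genes with such an overlap are not described here.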

How the data were processed

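The deposited gene counts come, per the file headers, from featureCounts 2.0.1, run on read pairs over exons of the TAIR10 annotation without a strand option, so sense and antisense reads are not separated. The submitters' processing notes also name HISAT2 2.2.0, STAR 2.7.9a and DESeq2 1.30.1. How the intron score, a coverage signal, was made is not given in the sources used here. The authors also deposited means and differences of log2(score + 1), rMATS p-values and false discovery rates with an inclusion difference (a score), and an other value, the exon length of each gene. A further 18 columns of values per sample were not used.

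The count test was edgeR 4.0.16 under R 4.3.3 (filterByExpr, TMM, glmQLFit, glmQLFTest, genotype as the only term, Benjamini-Hochberg over all genes at 0.05). Intron scores were tested with limma 3.58.1 (eBayes with trend) on log2(score + 1) for all introns above 0 in at least 1 column. Such fold changes understate changes of low values. The planned test on whole reads per intron was replaced, since the multiples proved to be covered bases, by edgeR on read-pair equivalents. Each fit was tested on simulated data: edgeR found most of the changes put into gene counts and the larger ones put into read-pair equivalents, and limma on scores found none. Positions came from Python 3.11.15 and RefSeq TAIR10.1, in which 94.2% of long nuclear introns had GT-AG, GC-AG or AT-AC ends. Mitochondrial sequence was not used. RefSeq gene records were found for 2683 of 2714 genes, and genes without a symbol there are named by locus.

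The members and lists were chosen with earlier results of these data known. Introns named were the 8 with the highest mean score, the 6 highest and 6 lowest differences among separated introns with a mean score of at least 1, the 4 longest, the 4 longest above 0 in all columns, and up to 3 per list. All others, among them the 13 with a 2-fold ratio, the introns of RNA-binding genes and those in changed genes, were chosen after their values were seen.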

Additional observations from a re-analysis of the deposited data

How the results depend on the processing

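No paired analysis was possible because the genotypes share only replicate number 1 and the score columns name no sample. The count of genes with a long intron that passed edgeR's test was 54, and it was 15 for introns of 1000 bases or more, 86 for 400 or more (fewer and more genes tested by construction) and 106 with no filter, where the cause was not tested. It ranged from 10 to 205 with a library left out, the lone library being assumed to vary like the others. The count fell without either Col-0 library and rose without either mutant library. For none of these settings was the share over all genes counted, so the changes cannot be called a trait of genes with a long intron. RLE size factors, library totals, a stricter filter and DESeq2 1.42.0 kept it between 46 and 67. Long introns past limma's threshold were 0 under the main settings and 1 with no filter, AT1G05960, whose scores of 0.056, 0.0542, 0 and 0 are under 1 covered read. They ranged from 0 to 217 with a column left out: 217 without the first mutant column, of which 205 had both Col-0 columns at 0 and so no spread. All other settings gave 0, which says nothing about stability, since limma made no true call when tested on simulated data. The median difference of 0.11 was 0.0526 for 1000 bases or more, 0.0551 with columns scaled to a common sum, 0 with no filter, and 0.0283 (without the second mutant column) to 0.153 with a column left out. The pooled ratio stayed between 0.954 and 1.04, and the share difference between −1.43 (without the second mutant column, the only one whose omission turned its direction) and 6.06 points; for 1000 bases or more it was −0.321. Of the 13 introns with a 2-fold ratio, those of PRPL35, ROD1, TLL1, NFU2, AT2G46550 and the 2nd of AT1G58602 moved by over 1.5 times when a column was left out. Depth limits all of this: 276 of 3044 long introns had at least 20 mean read-pair equivalents.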

Other observations

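Some thinly covered introns outside the rules for naming had large fold changes in the added test of read-pair equivalents, and they were chosen after their values were seen. The 5′ UTR intron of AT2G28060 (RefSeq synonym KINbeta3, 1052 bases) scored 47.8 and 73.0 in Col-0 and 9.03 and 5.77 in the mutant (log2 fold change −3.13 ± 0.73, adjusted p = 0.371, edgeR), at gene counts of 8.95, 8.51, 9.21 and 11.7 CPM. The 3rd intron of CRK41, 741 bases, scored 11.3 and 27.7 against 141 and 55.3 (2.38 ± 0.69, adjusted p = 0.673). The only intron of AT3G10090, 768 bases in the 5′ UTR, scored 30.3 and 14.4 against 104 and 112 (2.24 ± 0.51, adjusted p = 0.367). All columns of the genotypes were separated in each, and none passed the test.

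Among introns whose genes rose, the 1st of NOP10, which codes for a nucleolar protein, has 548 bases and scored 14.1 and 70.7 in Col-0 and 142 and 134 in the mutant while the gene rose by 0.52 ± 0.12 on the log2 scale (adjusted p = 0.0199, edgeR). The 1st intron of XPO1A, the nuclear export receptor, 531 bases, scored 0.948 and 4.94 against 56.6 and 18.7, from at most 7.91 read-pair equivalents, and its gene rose by 0.39 ± 0.08 (adjusted p = 0.00732). Its homologue XPO1B rose by 1.498 ± 0.12 (adjusted p = 1.05e-07), and its intron of 516 bases was above 0 in the second mutant column only, at 11.8. The locus AT4G02970 is listed by RefSeq as AT7SL-1, an RNA of the signal recognition particle. Its scored gap of 868 bases lies between coding exons, so it need not belong to that RNA, which was not tested. The gap had 1060 and 979 in Col-0 and 454 and 1064 in the mutant, so that the first mutant column stood apart from the other 3. The count of this locus had the same shape, with 13.5 and 13.0 CPM in Col-0 and 5.92 and 13.5 in mutant replicates 1 and 3.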
